A study of Mus musculus with 7 samples.

Results

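The resting transcriptome of vehicle-treated articular chondrocytes was described from 2 of the 7 bulk RNA-seq libraries of the series, vehicle replicate 1 and vehicle replicate 2, with every gene ranked by its level. The cells were primary mouse chondrocytes released by digestion from the femoral head, grown in medium with 10% fetal bovine serum and 2 mM glutamine, and kept with vehicle for 24 h before total RNA was taken. The other libraries, TGFβ1 at 5 ng/ml (n = 2) and BMP2 at 100 ng/ml (n = 3), were used only to describe the libraries. The labels leave out the strain, age, sex and number of the mice and whether the replicates came from separate animals or cultures, so the spread between the 2 libraries may be technical.

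Articular chondrocytes are the resident cells of joint cartilage. They lay down a network of collagen II fibrils with collagens IX and XI, filled by aggrecan bound to hyaluronan through link protein, and the transcription factor SOX9, with SOX5 and SOX6, drives these genes. In the growth plate and in osteoarthritis chondrocytes can become hypertrophic, a state marked by collagen X and MMP13, while cells at the joint surface secrete lubricin, the product of Prg4.

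Levels are given as RPKM: the deposited count divided by the deposited gene length in kilobases and by the library's total count scaled to 1e6, with annotated ribosomal RNA left out of that total. The vehicle libraries held 6885056 and 7387051 counts, of which ribosomal RNA took 18.5% in replicate 1 and 16.9% in replicate 2, leaving 5613190 and 6140646. Of 52459 gene names, 22105 outside ribosomal RNA had a count in at least 1 vehicle library, 11126 had a mean level of at least 1 RPKM, 3605 of at least 10 and 318 of at least 100. Among the 21758 protein-coding names the median was 0.584 RPKM, 46.0% reached 1 RPKM, 15.98% reached 10 and 1.38% reached 100. Ribosomal protein genes took 1.13% and 1.19% of the vehicle counts, from 1.16% to 1.48% in the BMP2 libraries and 6.86% and 6.76% in the TGFβ1 libraries. The TGFβ1 libraries also held more counts, 18047765 and 16271793, and less ribosomal RNA, 7.04% and 7.21%. The part of these library differences in the ribosomal protein share was not tested.

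The highest values belonged to 5 names that stand apart from the genes described here. Mir6236, Gm23935, Gm15564, Lars2 and Gm26917 together took 24.9% of the counts in replicate 1 and 23.2% in replicate 2. Lars2, which encodes the mitochondrial leucyl-tRNA synthetase, alone took 12.5% and 11.1%. Its level was 11229 RPKM in replicate 1 and 10054 RPKM in replicate 2. Leaving the 5 names out of the totals would multiply every other level by 1.33 in replicate 1 and 1.30 in replicate 2. Whether these counts are the named transcripts was not tested.

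After Lars2, Col2a1 led the protein-coding genes. Col2a1 encodes the α1 chain of collagen II and lies on chromosome 15 at positions 97975602 to 98004695 of mm10, on the minus strand. It had 262980 counts in replicate 1 and 299666 in replicate 2, which are 7807 and 8132 RPKM. Its share of all counts was 4.69% (95% exact Clopper-Pearson interval 4.67 to 4.70) in replicate 1 and 4.88% (4.86 to 4.90) in replicate 2. These intervals cover counting error only. Sparc followed at 3449 and 3315 RPKM. It encodes osteonectin, a secreted protein that binds calcium and collagen.

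The protein-coding genes ranked 4 to 20 mixed mitochondrial, housekeeping and cartilage genes. The collagen chaperone Serpinh1, Matn1, Fn1, Mgp, Cnmd, Col11a1 and Snorc, each described with its class further on, were among them. Mitochondrially encoded genes were led by mt-Nd6 at 3068 and 2714 RPKM and mt-Nd1 at 2277 and 2337 RPKM, both subunits of respiratory complex I. The first place of mt-Nd6 rested on division by its length. Without that division it ranked 31 among protein-coding names, behind mt-Nd1 at 17, mt-Cytb at 21, mt-Nd4 at 23 and mt-Co1 at 29. The iron store Fth1 stood at 2420 and 2423 RPKM, the ribosomal stalk protein gene Rplp1 at 1444 and 1268 RPKM and the actin gene Actb at 1138 and 1140 RPKM. Fth1 and ribosomal protein genes have near-identical processed copies in the genome, so their counts are uncertain. Itm2a, a membrane protein gene known from cartilage development, stood at 755 and 857 RPKM. Further down the 30 leading names came P4hb, the β subunit of collagen prolyl hydroxylase, at 716 and 770.1 RPKM.

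Counts were concentrated in few genes. With Lars2 set aside, Col2a1 held 6.37% and 6.49% of all protein-coding counts, the leading 10 protein-coding names held 10.7% in each library, the leading 100 held 26.6% and 26.1%, and the leading 500 held 42.3% and 41.9%. The 225 genes of the collagen, proteoglycan and matrix glycoprotein lists together took 13.9% and 14.1% of all counts, and 34 of them reached 100 RPKM. With Lars2 and the mitochondrially encoded genes set aside, matrix genes were 5 of the leading 10, 14 of the leading 30 and 24 of the leading 100 protein-coding names. Transcription factors gave 0, 0 and 1 of these names, receptors 0, 0 and 0, ligands 1, 2 and 4, and proteases or their inhibitors 1, 3 and 4. The member of that last list in the leading 10 was Serpinh1, which acts as a collagen chaperone.

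Among the 44 collagen genes, 24 reached 1 RPKM, 18 reached 10 and 10 reached 100, and the whole list took 7.34% of counts in replicate 1 and 7.51% in replicate 2. Chains of collagens II, XI and IX filled the first 5 places. After Col2a1 stood Col11a1 at 841 and 819.9 RPKM, Col9a1 at 562 and 565 RPKM, Col9a3 at 409 and 408 RPKM and Col11a2 at 333 and 325 RPKM. Col9a2 came further down at 202 and 204 RPKM. Collagen XI sets the diameter of the collagen II fibril and collagen IX coats its surface. No 2 neighbours in the order of the leading 10 collagens overlapped between the libraries. Col2a1 stood 9.28 and 9.92 times above Col11a1 and 13.9 and 14.4 times above Col9a1.

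Collagens VI and X stood between Col11a2 and Col9a2. Col6a1, a chain of the pericellular collagen VI, was at 230 RPKM in replicate 1 and 253 RPKM in replicate 2. Col10a1, the hypertrophic collagen, was at 214 and 215 RPKM, so that Col2a1 exceeded it 36.6 and 37.8 times. Col1a1 and Col1a2, the chains of the fibrous collagen I of bone, tendon and dedifferentiated chondrocytes, were at 136 and 134 RPKM and at 112 and 114 RPKM. Col2a1 exceeded Col1a1 57.3 and 60.5 times. Col3a1, a collagen of loose connective tissue, stood at 27.6 and 27.8 RPKM. Col6a4 and Col6a5 had no count in either library.

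Ratios between chains of 1 collagen rested on the length used. Col1a1 stood above Col1a2 by 1.21 and 1.17 times with the deposited lengths, but the ratio turned to 0.568 with the length of the principal transcript. The deposited length was the longer for some genes, as for Bgn with 6099 against 2419 bases. It was the shorter for others, as for Fth1 with 866 against 1494 bases. The ratio of Col6a1 to Col6a2 fell from 2.76 and 2.78 to 1.40. By contrast the ratio of Col9a1 to Col9a3 was 1.37 and 1.38 with the deposited length and 1.44 with the other. The ratio of Col2a1 to Col1a1 was 62.7 with the principal transcripts.

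The 36 proteoglycan and link protein genes took 1.78% and 1.76% of counts, and 9 of them reached 100 RPKM. Snorc, a small transmembrane chondroitin sulfate proteoglycan of cartilage that the file lists under its older name 3110079O15Rik, stood first at 773 and 779.5 RPKM. Acan, which encodes aggrecan, followed at 639 and 607 RPKM. Hapln1, the link protein that fixes aggrecan to hyaluronan, was at 254 and 249.9 RPKM, so that Acan exceeded it 2.52 and 2.43 times. The first place was not fixed: Acan led when counts were not divided by length, and Bgn led with principal transcript lengths.

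Small leucine-rich proteoglycans, which bind collagen fibrils and growth factors, filled most of the next places. Biglycan (Bgn) was at 537 and 514 RPKM, osteoglycin (Ogn) at 446 and 476 RPKM, fibromodulin (Fmod) at 461 and 458 RPKM, decorin (Dcn) at 348 and 369 RPKM and osteomodulin (Omd) at 108 and 127 RPKM. Ogn and Fmod overlapped between the libraries and could not be ordered. Prg4, the lubricin gene of the joint surface, stood at 129 RPKM in replicate 1 and 112 RPKM in replicate 2, and its range overlapped that of Omd. Hspg2, which encodes the pericellular proteoglycan perlecan, was at 92.3 and 91.6 RPKM.

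The 145 matrix glycoproteins took 4.79% and 4.80% of counts, and 15 reached 100 RPKM. After Sparc, matrilin 1 (Matn1), an adaptor between cartilage fibrils and aggrecan, stood at 1361 and 1319 RPKM. Fibronectin (Fn1) at 1119 and 1125 RPKM and matrix Gla protein (Mgp), an inhibitor of mineral deposition, at 1147 and 1052 RPKM overlapped each other. The cartilage oligomeric matrix protein (Comp) was at 715 and 811 RPKM.

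Comp, Spp1 and Thbs1 overlapped in turn. Spp1, the bone and hypertrophic cartilage protein osteopontin, was at 641 RPKM in replicate 1 and 796 RPKM in replicate 2. Thbs1, thrombospondin 1, was at 711 and 684 RPKM. Ctgf, a matricellular protein now called Ccn2, was at 502 and 573 RPKM. Ucma, a vitamin K-dependent protein of cartilage, was at 349.7 and 414 RPKM, and matrilin 3 (Matn3) at 285 and 289.6 RPKM. Another gene covers 18.8% of the exon bases of Spp1 and 23.2% of those of Ctgf, and whether the counting used strand is not stated in the labels.

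**Figure D1:**
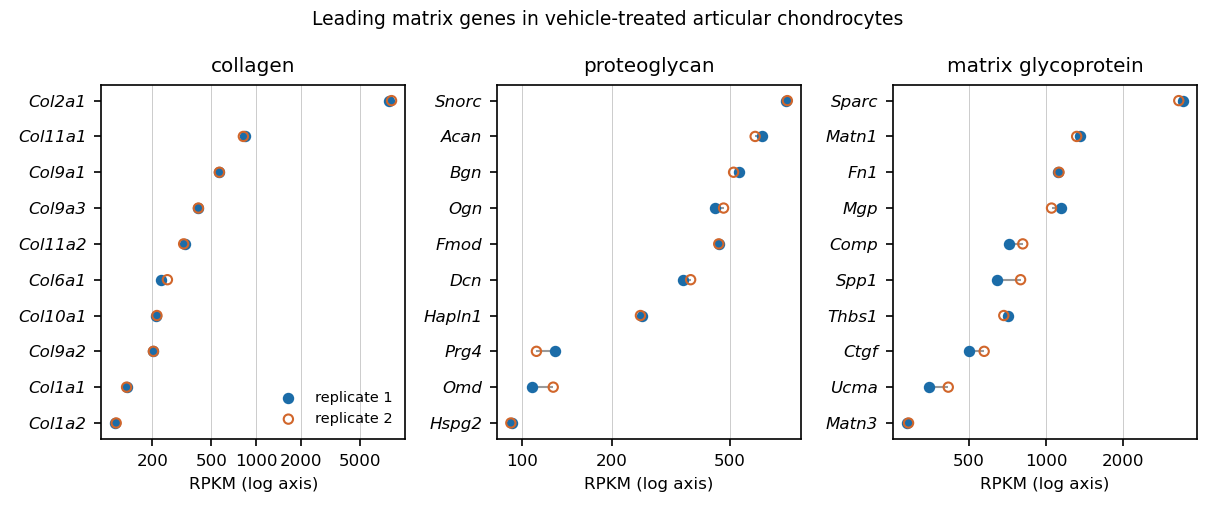
The 10 leading genes of the collagen, proteoglycan and matrix glycoprotein lists, with RPKM on a log axis; filled points are vehicle replicate 1, open points vehicle replicate 2. Col2a1 at 7807 and 8132 RPKM stands far right of the other collagens, and most pairs of points nearly coincide, with Spp1, Ucma, Prg4 and Omd the widest apart.

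The promoters of leading matrix genes differed in their content of CG pairs. In most vertebrate genomes promoters of widely used genes are rich in CG pairs, and many promoters of tissue-restricted genes are poor in them. The sequences below are the 250 bases before the RefSeq start site (GRCm38.p6), written 5′ to 3′ on the gene's strand with every CG pair in capitals; they show matrix and cartilage genes at both ends of the range, and Atf4, the transcription factor of highest level.
Cnmd, chr14:79662184-79662433, minus strand: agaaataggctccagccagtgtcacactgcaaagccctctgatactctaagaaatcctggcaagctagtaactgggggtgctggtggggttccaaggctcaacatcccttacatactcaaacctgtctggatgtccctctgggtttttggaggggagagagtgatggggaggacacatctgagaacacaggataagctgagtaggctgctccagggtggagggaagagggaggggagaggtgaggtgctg
Col9a1, chr1:24177360-24177609, plus strand: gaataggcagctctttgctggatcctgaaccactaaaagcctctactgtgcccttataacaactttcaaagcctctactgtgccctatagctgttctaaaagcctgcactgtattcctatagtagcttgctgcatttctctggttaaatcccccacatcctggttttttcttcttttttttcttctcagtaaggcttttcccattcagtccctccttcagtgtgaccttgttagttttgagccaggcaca
Matn1, chr4:130944135-130944384, plus strand: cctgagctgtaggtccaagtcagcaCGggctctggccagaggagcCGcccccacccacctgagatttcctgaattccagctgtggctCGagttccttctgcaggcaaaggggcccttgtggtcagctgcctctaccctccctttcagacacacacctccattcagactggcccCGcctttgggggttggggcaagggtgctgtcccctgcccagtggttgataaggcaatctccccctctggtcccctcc
Acan, chr7:79052976-79053225, plus strand: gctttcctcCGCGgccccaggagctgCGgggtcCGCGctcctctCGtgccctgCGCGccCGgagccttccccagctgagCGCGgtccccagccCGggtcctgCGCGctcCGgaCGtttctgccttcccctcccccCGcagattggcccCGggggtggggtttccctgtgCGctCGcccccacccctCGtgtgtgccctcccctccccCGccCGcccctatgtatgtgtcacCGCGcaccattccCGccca
Atf4, chr15:80254934-80255183, plus strand: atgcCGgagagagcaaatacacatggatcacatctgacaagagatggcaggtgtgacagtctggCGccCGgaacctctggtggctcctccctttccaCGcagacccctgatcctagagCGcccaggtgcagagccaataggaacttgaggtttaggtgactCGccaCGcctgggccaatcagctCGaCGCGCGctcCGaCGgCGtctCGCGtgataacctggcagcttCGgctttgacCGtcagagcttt

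The Cnmd and Col9a1 windows held 0 CG pairs and the Matn1 window held 4, whereas Acan held 26 and Atf4 18. Of the 80 genes of the 3 matrix lists at 10 RPKM or more, 55 had a RefSeq promoter sequence available. Col2a1, the leading matrix gene, had none, so it enters none of the promoter shares given here. Of the 55, 26 (47.3%) had 5 or fewer CG pairs, with a median of 7. Transcription factors at 10 RPKM or more had 5 or fewer in 3 of 63 (4.76%), with a median of 19, and receptors in 5 of 48 (10.4%), with a median of 18. For comparison, the share was 36.3% over the 16481 protein-coding genes with a promoter, 9.25% over the 7999 of these at 1 RPKM or more and 61.8% over the 8482 below 1 RPKM. These shares are descriptions of letters in a window, and methylation was not measured.

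For the leading sets that follow, Lars2 and the mitochondrially encoded genes were set aside. The leading 100 protein-coding genes, of which 71 had a promoter, had 5 or fewer CG pairs in 26.8%. Among the leading 50 it was 36.7% and among the leading 200 it was 16.7%. The letters GGGCGG, the core of the GC box, searched on both strands, were found in 50.9% of the matrix promoters at 10 RPKM or more, 65.1% of those of transcription factors, 77.1% of those of receptors, 63.2% of those of protein-coding genes at 1 RPKM or more and 44.3% of all. That motif holds a CG pair, so it moves with the count of CG pairs. The letters TATAAA on the gene's strand, between 45 and 15 bases before the start, were found in 6 of the 55 matrix promoters (10.9%), in 0 of 63 of transcription factors, in 1.06% of protein-coding genes at 1 RPKM or more and in 2.91% of all. Col10a1 was 1 of those with it.

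**Figure D2:**
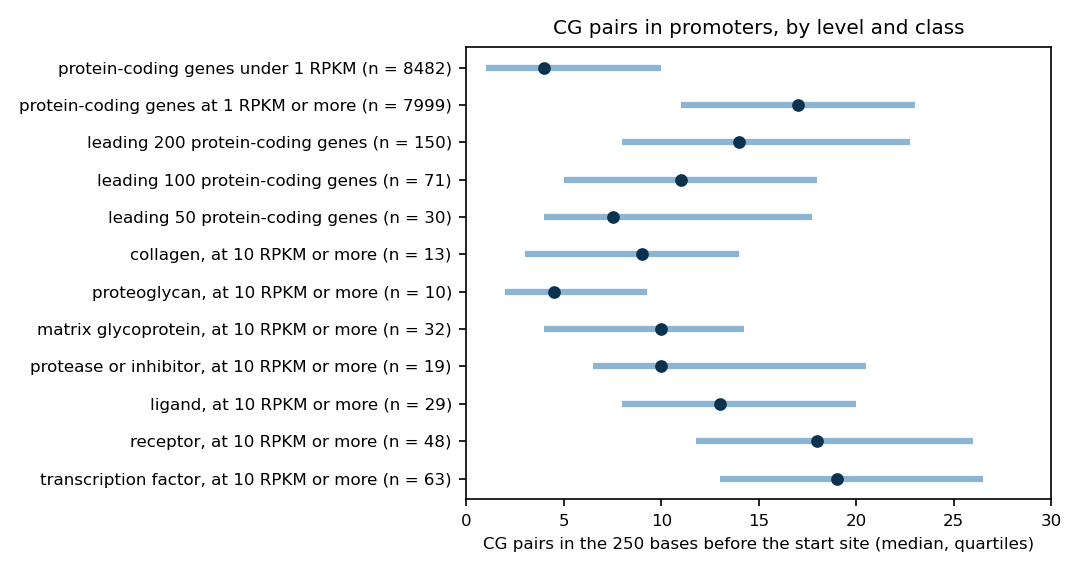
CG pairs in the 250 bases before the RefSeq start site for sets of protein-coding genes; points are medians, bars run from the lower to the upper quartile, and n is the number of genes with a promoter. Lars2 and the mitochondrially encoded genes are left out of all sets. The 10 proteoglycan promoters have a median of 4.5 pairs and the 63 transcription factor promoters a median of 19.

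Few transcription factors reached the levels of the leading matrix genes. Of 588 in the file, 324 reached 1 RPKM, 88 reached 10 and 6 reached 100, while 95 had no count in either library, and together they took 1.82% and 1.81% of counts. Their median was 1.42 RPKM, against 3.88 RPKM for the collagens, 2.48 RPKM for the proteoglycans and 2.14 RPKM for the matrix glycoproteins. Atf4 led at 354 RPKM in replicate 1 and 316 RPKM in replicate 2. It is the main effector of the integrated stress response and a regulator of amino acid supply. Atf5, a relative, was at 178 and 160.2 RPKM and Ddit3 (CHOP), a target of Atf4, at 158 and 174 RPKM.

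Sox9, the master regulator of chondrocytes, was second at 179 and 174 RPKM. Its range overlapped those of Atf5, and those of Atf5 and Ddit3 and of Ddit3 and Id3 overlapped as well, so with the deposited lengths only Atf4 stood clear at the top. Without division by length Sox9 led the transcription factors, and Lrp1, Igf2 and Fn1 led the receptors, ligands and matrix glycoproteins. Sox6 was at 9.48 and 9.75 RPKM and Sox5 at 5.87 and 5.35 RPKM. Sox9 thus stood 18.9 and 17.8 times above Sox6 with the deposited lengths, and 10.7 times with principal transcripts. Sox4 at 10.9 and 10.6 RPKM was the only other of 18 Sox genes to reach 10 RPKM.

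The inhibitors of differentiation Id1, Id2 and Id3, known targets of BMP signalling, were among the leading 10. Id3 stood at 158 and 163 RPKM, Id1 at 88.3 and 87.3 RPKM and Id2 at 80.1 and 79.5 RPKM. Snai2 (Slug), a repressor known from mesenchymal cells, was at 122 and 124 RPKM, the stress factor Nfe2l1 at 81.5 and 85.6 RPKM and Hif1a, the hypoxia factor that cartilage cells need to survive, at 78.9 and 81.6 RPKM. Another gene covers 10.9% of the exon bases of Ddit3.

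All 3 Runx genes, which drive chondrocyte maturation and bone formation, were detected. Runx3 was at 11.5 and 12.6 RPKM, Runx2 at 6.33 and 6.30 RPKM and Runx1 at 1.01 and 1.21 RPKM. Of 39 Hox genes, the factors that record position along the body and limb, 18 reached 1 RPKM and 5 reached 10. Hoxc10 led at 31.3 and 32.8 RPKM and Hoxa10 followed at 23.1 and 21.9 RPKM. Hoxd13 and Hoxa13, which pattern the digits, stood at 0.430 and 0.459 RPKM and at 0.504 and 0.198 RPKM. All 8 Smad genes reached 1 RPKM, and among the 7 AP-1 genes Jund led at 27.8 and 24.8 RPKM.

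Of 340 receptor genes, 152 reached 1 RPKM, 57 reached 10 and 3 reached 100, and the list took 1.21% and 1.25% of counts. The 3 were receptors for matrix and for heparin-binding factors. Syndecan 4 (Sdc4) stood at 127 and 143 RPKM, integrin β1 (Itgb1), the shared partner of the collagen and fibronectin receptors, at 102 and 123 RPKM and syndecan 2 (Sdc2) at 104 and 117 RPKM. All 3 were higher in replicate 2, and Itgb1 and Sdc2 overlapped. Syndecan 3 (Sdc3) was at 47.1 and 48.0 RPKM.

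Next came Tnfrsf11b, Fgfr3 and Pth1r, which overlapped in turn. Tnfrsf11b, which encodes osteoprotegerin, the soluble decoy for RANKL, was at 66.6 and 73.3 RPKM. Its partner Tnfsf11 (RANKL) was at 1.04 and 1.17 RPKM, 64.3 and 62.9 times lower. Fgfr3, the receptor that restrains growth plate chondrocytes, was at 68.5 and 70.7 RPKM, above Fgfr2 at 26.05 and 31.2 RPKM and Fgfr1 at 15.7 and 17.98 RPKM. Another gene covers 13.9% of the exon bases of Fgfr3.

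Pth1r, the receptor for parathyroid hormone and PTHrP, was at 59.7 RPKM in replicate 1 and 72.6 RPKM in replicate 2. The adiponectin receptor Adipor1 stood at 55.3 and 57.1 RPKM, the TWEAK receptor Tnfrsf12a at 50.9 and 55.6 RPKM and the FGF decoy Fgfrl1 at 49.1 and 56.9 RPKM, and these 3 overlapped. Of the 14 receptors for TGFβ, activin and BMP, 9 reached 1 RPKM and 2 reached 10. These were Bmpr1a at 21.2 and 23.9 RPKM and Tgfbr2 at 17.9 and 18.4 RPKM. Tgfbr1 was at 8.21 and 8.27 RPKM, whereas Bmpr1b, a BMP receptor of early cartilage condensations, was at 0.747 and 0.765 RPKM.

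Of 334 ligand genes, which here include secreted inhibitors, 113 reached 1 RPKM and 5 reached 100, and 95 had no count. They took 1.02% and 1.04% of counts. Cnmd, chondromodulin, a cartilage protein that blocks blood vessel growth, led at 897 RPKM in replicate 1 and 1067 RPKM in replicate 2. Its promoter is the first sequence printed above. Insulin-like growth factor 2 (Igf2) was at 542 and 512 RPKM, while Igf1 was at 0.126 and 0.214 RPKM. Other genes cover 64.5% of the exon bases of Igf2, so its value is uncertain.

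Penk, the precursor of enkephalin peptides, stood at 425 and 390.4 RPKM, Cytl1, a cartilage cytokine, at 309 and 337 RPKM and Hdgf, a nuclear and secreted growth factor, at 142 and 141 RPKM. The inflammatory cytokine Mif was at 89.0 and 101 RPKM. None of the neighbours among the 8 leading ligands overlapped. Another gene covers 14.3% of the exon bases of Penk.

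The lower places rested on the length used, and 6 of the 10 leading ligands stayed among the leading 10 with principal transcript lengths. The TGFβ family member Gdf10 was at 66.9 and 74.9 RPKM and moved from rank 472 to 1535 among protein-coding names with that length. Next stood the Wnt inhibitor Wif1 at 60.7 and 60.3 RPKM and the BMP modulator Twsg1 at 55.5 and 57.5 RPKM. Ostn (musclin), a secreted peptide of bone and muscle, was at 43.7 RPKM in replicate 1 and 60.4 RPKM in replicate 2, with 12.9% of its exon bases shared with another gene. Of 33 TGFβ superfamily ligands, 12 reached 1 RPKM and 3 reached 10, and 8 had no count. Tgfb2 was at 33.8 and 34.4 RPKM, above Tgfb3 at 10.3 and 9.48 RPKM and Tgfb1 at 4.59 and 4.30 RPKM. Tgfb2 exceeded Tgfb1 by 7.35 times in replicate 1, and by 3.75 times over both libraries with principal transcripts.

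Several ligands known from cartilage development were low. Indian hedgehog (Ihh), made by prehypertrophic cells, was at 1.46 and 1.02 RPKM, and Pthlh, which encodes PTHrP and slows maturation, at 1.76 and 1.51 RPKM. Gdf5, the growth factor of joint formation, had 1 count in replicate 1 and 14 in replicate 2, which are 0.0768 and 0.983 RPKM, and its level rests on replicate 2. Another gene covers 40.3% of the exon bases of Gdf5. Of 19 Wnt ligands 4 reached 1 RPKM, led by Wnt5a at 4.19 and 4.54 RPKM, while 9 had no count. Among 25 interleukins 5 reached 1 RPKM, and Il6 and Il1b had no count.

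The list of 85 proteases and protease inhibitors took 1.83% of counts in replicate 1 and 1.63% in replicate 2. Serpinh1 (HSP47), a serpin by family that acts as the collagen chaperone of the endoplasmic reticulum, led at 2130 and 2427 RPKM. It held 29205 of the list's 102716 counts in replicate 1 and 36406 of 100022 in replicate 2. Inhibitors took the next places. The metalloproteinase inhibitors Timp1, at 691 and 715 RPKM, and Timp3, at 848 RPKM in replicate 1 and 497 RPKM in replicate 2, overlapped, and Timp2 was at 204 and 215 RPKM. Timp3 was 1.71-fold higher in replicate 1. Timp3 was above Timp1 in replicate 1 and below it in replicate 2. Another gene covers 21.3% of the exon bases of Timp3.

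The cysteine protease inhibitor cystatin C (Cst3) was at 485 and 440.1 RPKM. Cathepsin D (Ctsd), a lysosomal protease, was at 202 and 181 RPKM, with 34.4% of its exon bases shared with another gene. Mmp13, the collagenase that cleaves collagen II, was at 160 and 171.5 RPKM. It was the leading gene of 23 matrix metalloproteinases, of which 3 reached 10 RPKM. Serpine2, an inhibitor of thrombin and urokinase, was at 86.5 and 88.8 RPKM, cathepsin K (Ctsk), a collagen-cleaving cathepsin of bone-resorbing cells, at 75.3 and 82.6 RPKM and Serpinf1 (PEDF), an inhibitor of vessel growth, at 78.2 and 77.2 RPKM. The aggrecan-cleaving Adamts5 was at 2.05 and 1.49 RPKM and Adamts4 had 7 and 3 counts.

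**Figure D3:**
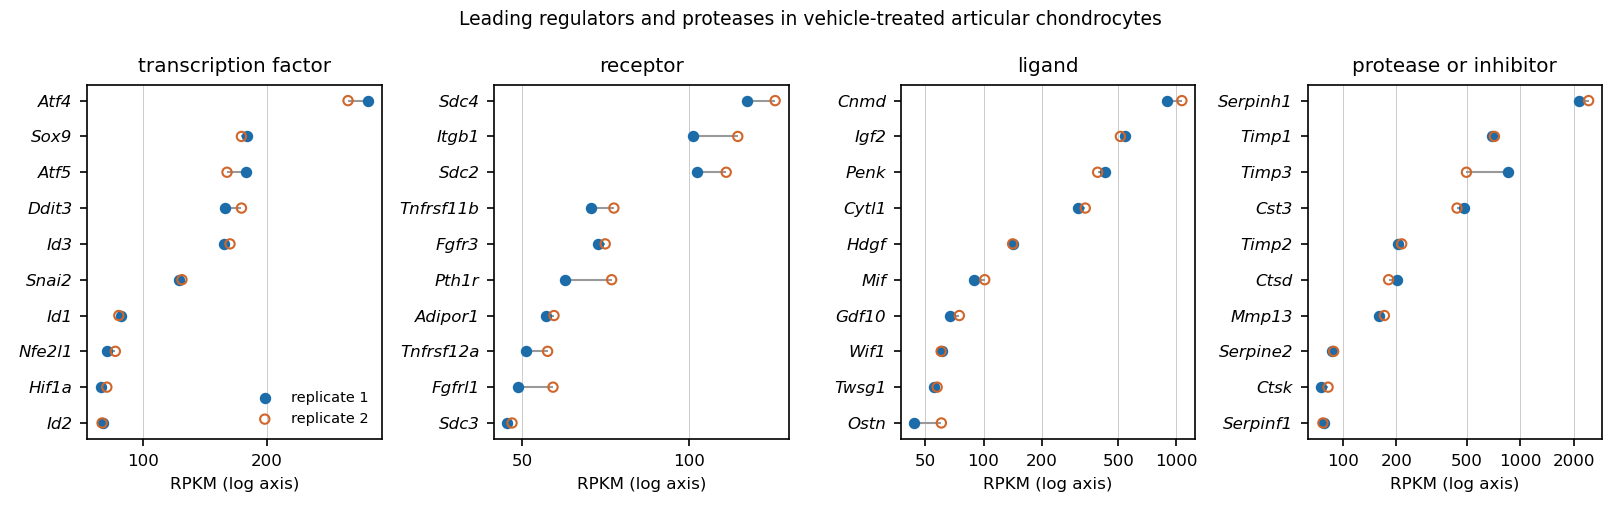
The 10 leading transcription factors, receptors, ligands and proteases or inhibitors, with RPKM on log axes that differ between panels; filled points are vehicle replicate 1, open points vehicle replicate 2. Atf4 and Cnmd stand clear at the top of their panels, receptors reach no more than 143 RPKM, and Timp3 shows the widest gap between libraries, 848 against 497 RPKM.

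Genes that fold, modify and secrete collagen formed a broad block, in a list added with earlier results of these data known. All 44 reached 1 RPKM, 40 reached 10 and 17 reached 100, with a median of 52.8 RPKM against 0.584 over all protein-coding names. Besides Serpinh1 and P4hb these included Hspa5 (BiP), the chaperone of the endoplasmic reticulum, at 468 and 383.5 RPKM, and the lysyl oxidase Loxl4, which crosslinks collagen, at 308 and 339.9 RPKM. The collagen hydroxylases Plod2, for lysine, and P4ha1, for proline, were at 207 and 219 RPKM and at 189 and 169 RPKM.

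Of 39 genes for glycosaminoglycan synthesis, 33 reached 1 RPKM and 19 reached 10. Papss2, which makes the sulfate donor, was the only one at 100 RPKM or more, with 203 and 188 RPKM. The sulfate transporter Slc26a2 was at 65.9 and 62.8 RPKM, and the hyaluronan synthase Has2 was at 5.17 and 4.88 RPKM.

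The label of the cells was set against marker lists. All 17 chondrocyte markers reached 1 RPKM and 13 of them reached 100, summing to 14650 RPKM in replicate 1 and 15153 RPKM in replicate 2. Col2a1 alone gave 7807 and 8132 RPKM of these sums, and only Sox5 and Sox6 were below 10 RPKM. Of the 14 superficial zone markers, 9 reached 1 RPKM and 4 reached 10, led by Prg4, with Abi3bp at 51.5 and 49.0 RPKM and Clu at 19.5 and 22.7 RPKM. All 17 genes of the hypertrophy list reached 1 RPKM and 12 reached 10, against 46.0% and 15.98% of protein-coding names. Spp1, Col10a1 and Mmp13 were among the 12. Runx2 and Ihh, with levels given above, were below 10 RPKM, and Ihh was close to the cut of 1 RPKM. Ucma, described above as a protein of cartilage, was on that list too, and its use as a hypertrophy marker was not tested. In a bulk library fewer cells of a type and less RNA per cell cannot be told apart.

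Markers of bone cells were mixed. Among 13 osteoblast markers, 5 were at 10 RPKM or more: Ibsp, bone sialoprotein, at 108 and 119 RPKM, Bglap at 58.2 and 56.7 RPKM, Bglap2 at 25.3 and 33.5 RPKM, Alpl at 20.7 and 16.9 RPKM and Sp7 at 14.6 and 11.7 RPKM. The remaining 8 were below 1 RPKM, and the osteocyte genes Sost and Mepe had no count. Ibsp, Alpl and Sp7 are on the hypertrophy list too, and Bglap and Bglap2 are near-identical copies whose counts are uncertain. Of 8 osteoclast markers, Ctsk and Acp5, the latter at 2.19 and 1.52 RPKM, reached 1 RPKM, and the defining Calcr, Dcstamp and Oscar had no count.

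Endothelial and erythroid markers were at or near 0, whereas a few leukocyte and neutrophil genes were detected. The 10 endothelial markers summed to 1.097 and 0.923 RPKM, with Pecam1, Cdh5 and 3 others without a count, which for Pecam1 allows up to 0.0858 and 0.0784 RPKM at 3 counts. The erythroid list had 1 count in replicate 1 and 5 in replicate 2, all of Alas2. The 14 leukocyte markers summed to 25.4 RPKM in replicate 1 and 34.4 RPKM in replicate 2, mostly Lyz2 at 13.9 and 23.1 RPKM. Of these markers 4 had a mean of at least 1 RPKM: Lyz2, Tyrobp, Cd68 and Laptm5. Ptprc, which encodes the pan-leukocyte protein CD45, had 2 and 4 counts, and Cd3e and Cd79a had none. Of 9 neutrophil markers 3 had a mean of at least 1 RPKM, Lcn2 at 26.5 and 29.2 RPKM, S100a8 and S100a9. Camp, Elane and Mpo had no count.

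Most markers of the fibroblast, pericyte, adipocyte and skeletal muscle lists were below 1 RPKM. Cspg4, Acta2 and Tnnt3 had a mean of at least 10 RPKM. Of 10 fibroblast or synovial markers 3 reached 1 RPKM, with Fap at 7.65 and 5.98 RPKM first. Among 8 pericyte or smooth muscle markers, Cspg4 at 22.1 and 20.99 RPKM and Acta2, at 21.6 RPKM in replicate 2 and lower in replicate 1, reached 1 RPKM, and Kcnj8 had no count. Fabp4 at 1.39 and 2.47 RPKM was the only 1 of 7 adipocyte markers above 1 RPKM. Tnnt3 at 6.86 and 14.8 RPKM was the only one of 8 skeletal muscle markers to do so, and Myod1, Myog, Myh1 and Myh4 had no count. What cells of these other types contribute to any level above was not tested.

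**Figure D4:**
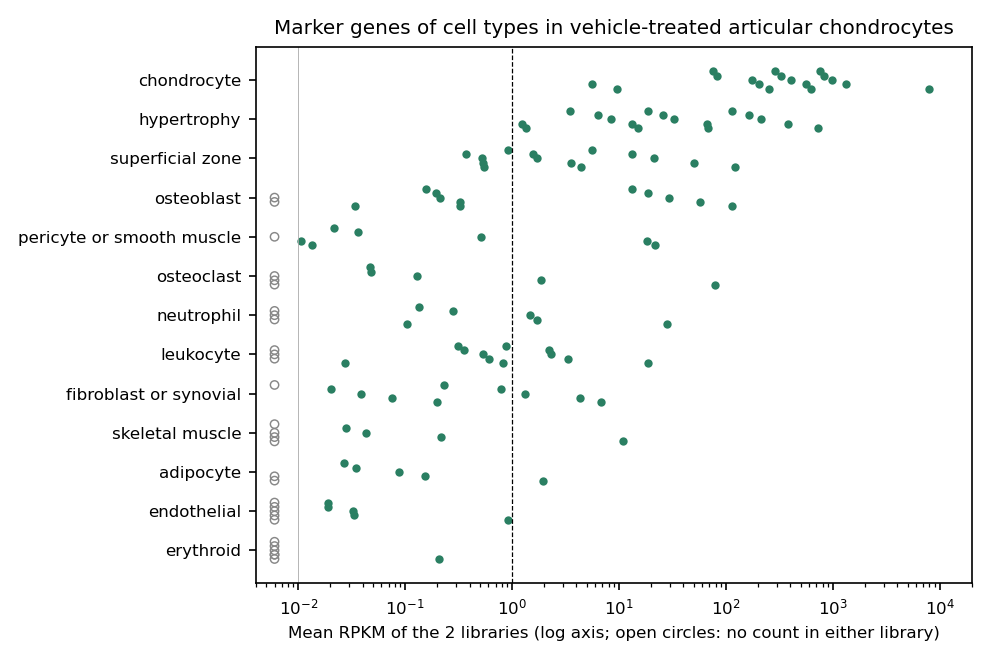
Mean RPKM of each marker gene on a log axis, by cell type list; filled points are genes with a count, open circles at the left are genes with no count in either vehicle library, and the dashed line is 1 RPKM. All 17 genes of the chondrocyte list and all 17 of the hypertrophy list lie right of the line, and all endothelial and erythroid markers lie left of it.

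The 2 vehicle libraries were close. Over the 11904 names with a summed count of at least 20, the median fold between libraries was 1.12, and at 10 RPKM or more, where 3592 names remained, it was 1.08 with 74 names over 1.5-fold apart. An exact binomial test of each gene's split of counts, which measures counting error only and compares these libraries rather than conditions, called 818 of 11904 names (6.87%) at an adjusted p under 0.05. Of these 624 (5.24% of those tested) were higher in replicate 2 and 194 (1.63%) higher in replicate 1. Replicate 2 was the higher library in 76.3% of calls, in 65.4% with TMM scaling, in 63.6% with the 5 leading names left out and in 84.3% with ribosomal RNA in the total.

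Against 818 of 11904 (6.87%) over all tested names, the test called 7 of 35 collagens, 9 of 25 proteoglycans and 15 of 102 matrix glycoproteins. It called 11 of 356 transcription factors, 15 of 185 receptors, 7 of 137 ligands and 6 of 54 proteases or inhibitors. Genes with many counts pass this test at small folds: Col2a1 was called with replicate 2 at 1.04 times replicate 1. The 5 widest called gaps in each direction were taken at 10 RPKM or more. Unnamed gene models, microRNA genes and mitochondrially encoded genes were set aside. Timp3 was the only gene above 100 RPKM among them. The others were Gfod2, at 7.54 and 23.8 RPKM, Rpl3, Tefm, Tnnt3 and Pet100, all higher in replicate 2, and Lonp2, at 13.6 and 7.83 RPKM, Ndufaf3, Pdcd2l and B4gat1, all higher in replicate 1. Tnnt3 carried nearly the whole skeletal muscle list, which summed to 7.07 and 15.2 RPKM.

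**Figure D5:**
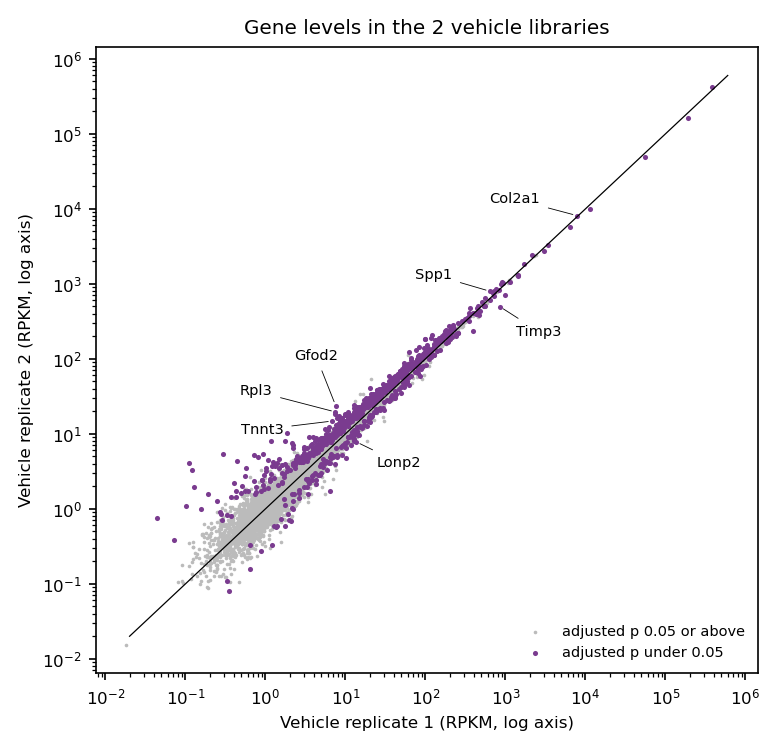
RPKM of each name in vehicle replicate 1 (x axis) against vehicle replicate 2 (y axis), both on log axes, for names with a summed count of at least 20 and a count in each library; purple points have an adjusted p under 0.05 in the exact binomial test and the line marks equal levels. Points follow the line over the whole range, and Timp3 at 848 and 497 RPKM lies off it among abundant genes.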

How the data were processed

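The deposited file holds counts per gene name for 7 libraries and a gene length, made by the authors with cutadapt, STAR 2.4.2a, Subread, featureCounts and DESeq2 on mm10, per the submitters' processing notes, which state no roles. Strand setting, annotation and treatment of reads with several matches: not given in the sources used here. Values were whole numbers with differing totals, taken as raw counts.

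For the 2 vehicle libraries, counts were divided by length in kilobases and by the total without rRNA, per 1e6. rRNA meant 356 names of the rRNA biotypes of GENCODE M21. Names matched that annotation as given (45707), with a hyphen (2401) or by synonym (201), and 4150 did not match. Class shares have exact 95% intervals. Libraries were compared gene by gene with an exact two-sided binomial test (scipy 1.17.1) and Benjamini-Hochberg adjustment over 11904 names with a summed count of at least 20; the script was tested on simulated data. TMM factors came from edgeR 4.0.16 in R 4.3.3. Levels between treatments were not tested.

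The text names the 30 leading protein-coding names, of which mt-Nd2, mt-Nd5, Rpl4 and Rpl8 appear only here. The text also covers the 10 leading genes of each class, a fixed set and up to 4 of each marker list. It also names the 5 widest called library differences in each direction, with unnamed gene models, microRNA genes and mitochondrially encoded genes set aside. Further members of families and added lists were named with their values in view. The members and lists were chosen with earlier results of these data known. The alternatives were other lengths, other totals, a count filter, TPM scaling and each replicate left out.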

Additional observations from a re-analysis of the deposited data

How the results depend on the processing

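No paired analysis was possible because 1 group was described and no test between groups was made. Without replicate 1 or replicate 2, the names at 1 RPKM or more numbered 11189 and 11184, the leading 100 protein-coding names shared 97 and 96 with those from both, and the class shares ran from 7.337 to 7.508% for collagens, 1.761 to 1.775% for proteoglycans, 4.788 to 4.797% for matrix glycoproteins, 1.812 to 1.816% for transcription factors, 1.209 to 1.254% for receptors, 1.021 to 1.04% for ligands and 1.629 to 1.83% for proteases or inhibitors. In that same order of classes, the mean shares became 6.112, 1.456, 3.946, 1.493, 1.014, 0.8481 and 1.423% with rRNA in the total, 1.319, 0.4747, 1.436, 0.4697, 0.251, 0.4174 and 0.6249% as shares of counts per kilobase, and 9.777, 2.329, 6.313, 2.39, 1.622, 1.357 and 2.28% with the 5 leading names left out, a setting chosen after seeing the data. The moves with rRNA in the total and with the 5 leading names left out follow from the denominators. Per kilobase, each gene's own count was divided by its length as well, and the order of classes changed. On that scale matrix glycoproteins (1.436%) stood above collagens (1.319%), and ligands (0.4174%) above receptors (0.251%). Without division by length 62 of the leading 100 names stayed, and the share of CG-poor promoters was 16.67% among 200 leading genes. Of 138 named genes, 77 moved in rank by over 1.5 times without division by length and 33 with principal transcript lengths; the other settings moved 0 to 4. Levels of genes under about 3 counts are limited by depth, 0.534 and 0.489 RPKM for a gene of 1 kb.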

Other observations

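Imprinted genes are expressed from 1 parental copy, and many of them act in fetal growth. Their list, added with earlier results known, held several abundant members. Of 33, 26 reached 1 RPKM, 13 reached 10 and 4 reached 100, with a median of 6.21 RPKM against 0.584 over all protein-coding names. As the list was chosen with results known and holds the noncoding H19, these medians are not like for like. H19, a long noncoding RNA beside Igf2, was at 1068 and 1036 RPKM, Mest at 154 and 175 RPKM and Peg3, a zinc finger protein gene, at 152 and 129 RPKM. The growth inhibitor Cdkn1c was at 62.5 and 72.0 RPKM. Other genes cover 23.1% of the exon bases of Mest and 30.7% of those of Cdkn1c.

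Cdsn, which encodes corneodesmosin, an adhesion protein known from skin, stood at 447 and 405 RPKM, rank 50 among protein-coding names, and shared no exon bases with another gene. It was named after its values were seen.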
